A study of Homo sapiens with 12 samples.

Results

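The comparison of 5-azacitidine alone with vehicle asks which messenger RNAs a lymphoma line holds more or less of after daily treatment with a low dose of this drug. It rests on 6 of the 12 libraries of the study, 3 named AZA and 3 named vehicle in the sample titles, and on the 17869 of 78892 genes in the count table that passed a filter on low counts. All groups were OCI-Ly7, an established human lymphoma line (diffuse large B-cell lymphoma, germinal-centre subtype). The AZA cells received 100 nM 5-azacitidine every day from day 0 to day 4, the vehicle cells 0 nM on the same days, and neither had the HDAC3 inhibitor. Cells of every group were harvested on day 5. The other 6 libraries, 3 with 5-azacitidine plus 15 µM of the inhibitor on days 2 and 4 (HDAC3i+AZA) and 3 with the inhibitor without 5-azacitidine (HDAC3i), served to read the same genes in other samples and to estimate the spread between libraries. As a model, each group is a single line at a single dose and time. Whether replicate libraries derive from independent cultures is not given in the labels, and the p-values therefore speak of variation among libraries, possibly technical, and no more.

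5-azacitidine is an analogue of cytidine. Cells phosphorylate it and build it into RNA and, after reduction of the ribose, into DNA, where a DNA methyltransferase that attacks the analogue stays bound and is degraded, so that methylation is lost as DNA is copied. Methylation sits on the cytosine of CG dinucleotides. Promoters rich in CG (CG islands) are mostly free of it in normal cells and become methylated at silenced genes of tumours, promoters poor in CG are often methylated where the gene is off, and the bodies of transcribed genes are methylated too. In tumour cells the drug is known for raising interferon-stimulated, antigen-presentation and germline genes.

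The 12 libraries held 35947872 to 36337086 counts, so that 0 counts allow up to 3 counts, or 0.0826 to 0.0835 CPM (counts per 1e+06) on raw library totals. Marker sums are on raw totals too, whereas the CPM of single genes are scaled with TMM factors. Such limits take in counting error alone, as PCR copies carry no molecular identifiers and are not separate molecules. Among the 6 libraries, AZA and vehicle were separated along the main principal component (29.3% of the variance). AZA replicate 1 stood apart from its group: the chi-square of its gene counts, divided by the degrees of freedom, was 27.5 and 24.8 against AZA replicates 2 and 3, beside 4.09 between those and 4.92 to 6.74 between vehicle libraries. Many counts of called genes are therefore also given without AZA replicate 1. The 8 B-cell markers summed to 3151 to 3236 CPM in the AZA libraries and 3012 to 3108 CPM in the vehicle libraries. Markers of granulocytes, erythroid cells, fibroblasts, epithelium and skeletal muscle summed to at most 0.222 CPM in any of them. In bulk RNA, fewer cells of a kind and less RNA per cell cannot be told apart.

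With 5-azacitidine, 1619 genes were called (9.06% of the 17869), 770 higher (4.31%) and 849 lower (4.75%), by edgeR's quasi-likelihood test at an adjusted p under 0.05. The counts were 684 and 753 without AZA replicate 1. The total was lowest, at 1017, without vehicle replicate 1. Most changes were small. The median log2 change was 0.41 among genes called higher and −0.28 among genes called lower, beside 0.0021 over all tested genes. Larger changes ran mostly upward: 152 genes (0.851%) were called at least 2-fold higher and 13 (0.0728%) at least 2-fold lower. Of the 152, 133 had a vehicle mean under 1 CPM, and 9 reached a mean of 5 CPM with AZA. Genes near 0 in vehicle can pass the filter through another group and have little room to be called lower. The 13 were scarce in vehicle too, with means of at most 2.50 CPM. Genes called lower had more counts, which are not divided by transcript length here, with a median of 56.4 CPM, against 15.8 CPM for those called higher and 8.19 CPM for all tested genes. Among genes over 100 CPM, 86 of 2079 were higher and 255 lower, and among those up to 1 CPM 121 of 5260 were higher and 14 lower. The AZA and vehicle libraries did not overlap for 758 of the 770 and 834 of the 849, beside 25.7% of all tested genes in either direction.

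**Figure D1:**
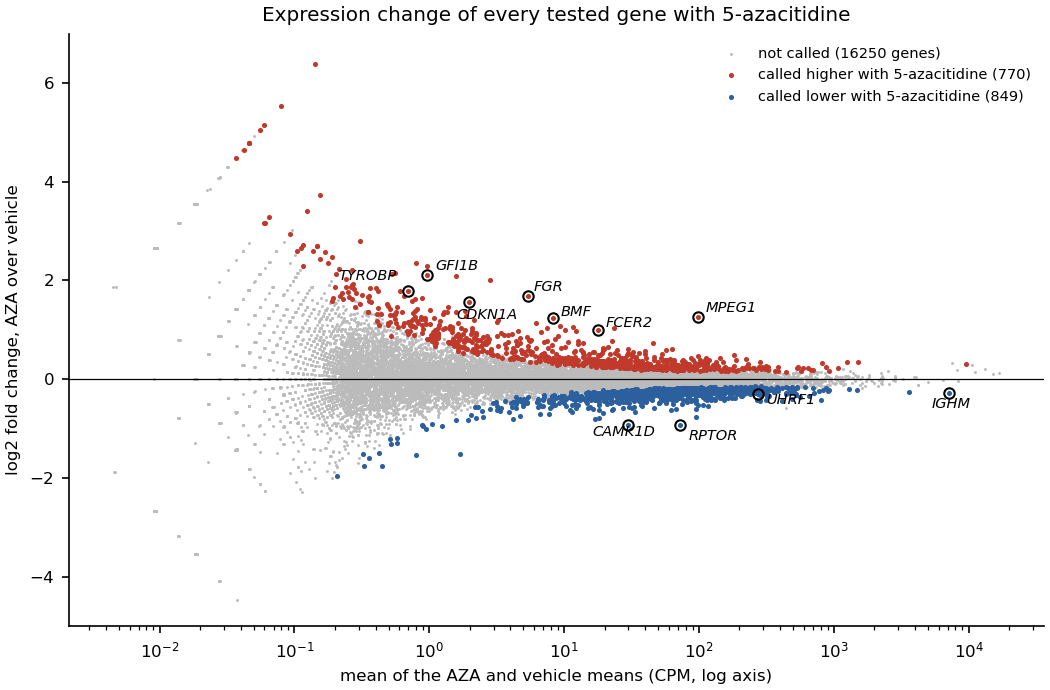
Each point is 1 of the 17869 tested genes, with the mean of the AZA and vehicle group means on the x axis (CPM, log axis) and the log2 fold change of AZA over vehicle on the y axis, called genes in red (770 higher) and blue (849 lower). Log2 changes over 2 are all at low levels, and falls of genes of high CPM lie close to 0.

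The split between directions depended on how the libraries' base composition was treated. Transcripts rich in G and C were lower in all 3 AZA libraries relative to all 3 vehicle libraries. The median log2 deviation over genes above 60% GC, minus that over genes up to 40% GC, was taken per library. It was −0.071, −0.16 and −0.020 in AZA replicates 1 to 3 and 0.056, 0.0042 and 0.19 in vehicle replicates 1 to 3. The groups did not overlap (exact permutation test, two-sided, p = 0.1, the smallest that 3 against 3 allows). With an offset for transcript GC in each library, an alternative chosen after seeing the data, 1106 genes were called higher and 675 lower, so that rises made up 62.1% of the calls, against 47.6% without the offset. Of the protein-coding genes of at least 5 CPM, 1.03% of those up to 40% GC and 17.1% of those over 60% GC were called lower. Where 5-azacitidine was added to the inhibitor the order was the other way round, with 9.90% and 3.13% called lower. Per library, however, the groups overlapped there. The difference of medians was 0.20, −0.074 and 0.0081 in HDAC3i+AZA replicates 1 to 3. In HDAC3i replicates 1 to 3 it was −0.028, −0.051 and −0.028.

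The 12 largest rises and 12 largest falls were picked among called protein-coding genes of at least 5 CPM in the higher group. The rule also asked that AZA and vehicle libraries not overlap, so their separation was set by the choice. The largest rise was that of FGR. FGR, a SRC-family kinase of myeloid cells and B cells (ENSG00000000938, chromosome 1, 27612064 to 27635185, GRCh38), had 7.92, 8.14 and 8.79 CPM in AZA replicates 1 to 3, against 2.49, 3.16 and 2.06 CPM in vehicle replicates 1 to 3. MPEG1, the pore-forming perforin-2 of macrophages and B cells, had 139.9, 139.97 and 136 CPM in AZA and 57.2, 58.4 and 57.7 CPM in vehicle. The lowest AZA library lay far above the highest vehicle library for both genes. The log2 change was 1.68 ± 0.11 (SE) for FGR and 1.26 ± 0.06 for MPEG1 (edgeR adjusted p = 1.18e-10 and 2.82e-13). BMF, a BH3-only protein that promotes apoptosis, had 11.03, 11.6 and 11.9 CPM in AZA and 5.47, 4.86 and 4.38 CPM in vehicle. FCER2, the low-affinity IgE receptor CD23 of mature B cells, had 21.3, 24.1 and 25.6 CPM in AZA and 12.1, 11.7 and 12.1 CPM in vehicle. SP140, a chromatin reader of immune cells, had 15.8, 16.7 and 15.9 CPM in AZA and 8.45, 7.53 and 8.67 CPM in vehicle. In each of these 3 the groups were clearly apart, with log2 changes of 1.23 ± 0.09, 0.99 ± 0.07 and 0.97 ± 0.08.

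Skeletal-muscle genes stood among the same 12. MYBPC2, a myosin-binding protein of fast muscle, had 31.2, 31.5 and 31.6 CPM in AZA and 14.9, 15.7 and 15.5 CPM in vehicle. TNNT1, troponin T of slow muscle, had 12.2, 12.4 and 13.3 CPM in AZA and 5.69, 5.84 and 6.44 CPM in vehicle. The muscle markers ACTA1, CKM, MYH2, MYH7, DES and MYOG did not accompany them: they summed to at most 0.0556 CPM in an AZA library and 0.222 CPM in a vehicle library. IFITM2, an interferon-induced membrane protein that blocks virus entry, had 12.1, 10.98 and 11.8 CPM in AZA and 6.52, 5.98 and 6.47 CPM in vehicle. LRRC25, a membrane protein of myeloid cells, had 15.3, 12.6 and 12.97 CPM in AZA and 7.07, 5.07 and 8.25 CPM in vehicle. SH2D2A, an adaptor of activated T cells, had 9.63, 8.74 and 8.36 CPM in AZA and 4.47, 4.202 and 5.05 CPM in vehicle. All of these lay higher in each AZA library. DUSP5, a phosphatase of ERK kinases, was less even, with 7.09, 6.69 and 4.397 CPM in AZA and 3.09, 2.89 and 3.22 CPM in vehicle, though its lowest AZA library was still above its highest vehicle library. DBNDD1 had 9.15, 8.25 and 7.93 CPM in AZA and 4.81, 2.84 and 3.93 CPM in vehicle. The log2 changes of these 7 lay between 0.88 and 1.13. All 12 rises were called in each of the 17 alternative analyses.

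The 12 largest falls ranged in log2 change from −0.66 to −0.94, and the 12 rises from 0.88 to 1.68. Most falls were of genes that span long stretches of genome. Values are given for 11 of them. CAMK1D, a calcium-dependent protein kinase that spans 486 kb of chromosome 10 (12349547 to 12835545), had 19.9, 19.4 and 21.9 CPM in AZA and 39.1, 40.7 and 37.4 CPM in vehicle. RPTOR, the scaffold that brings substrates to mTOR complex 1, spans 422 kb of chromosome 17 and had 51.9, 47.4 and 51.6 CPM in AZA and 92.1, 95.8 and 98.9 CPM in vehicle. In both, every AZA library was well under every vehicle library (log2 change −0.94 ± 0.07 and −0.93 ± 0.06, edgeR adjusted p = 2.61e-10 and 3.57e-11). TRAPPC9, a subunit of a vesicle-tethering complex that spans 731 kb, had 11.1, 13.2 and 12.9 CPM in AZA and 22.5, 20.6 and 21.8 CPM in vehicle. STX8, an endosomal SNARE protein that spans 326 kb, had 13.4, 13.8 and 12.6 CPM in AZA and 24.2, 22.7 and 21.6 CPM in vehicle. The log2 changes of TRAPPC9 and STX8 were −0.80 ± 0.08 and −0.78 ± 0.08, and their groups did not overlap.

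DIAPH2, a formin that builds actin filaments, is the longest of the 12 at 920 kb and had 16.3, 14.9 and 13.5 CPM in AZA and 22.8, 24.1 and 24.6 CPM in vehicle. CMIP, which spans 267 kb, had 29.9, 23.5 and 24.7 CPM in AZA and 39.001, 42.8 and 41.2 CPM in vehicle. ATP11A, a phospholipid flippase of 197 kb, had 8.803, 8.79 and 8.82 CPM in AZA and 13.6, 14.8 and 13.3 CPM in vehicle. These 3 differed by −0.68, −0.66 and −0.66 on the log2 scale, with every AZA library below every vehicle library. KATNAL2, a katanin-like ATPase of 186 kb, had 5.09, 4.78 and 5.29 CPM in AZA and 7.35, 8.89 and 8.39 CPM in vehicle. The short genes of the set were KLF15, RASL10A and ADAT3. KLF15, a zinc-finger factor of metabolic genes, had 2.77, 2.48 and 3.7997 CPM in AZA and 4.59, 5.95 and 5.39 CPM in vehicle. RASL10A, a RAS-like GTPase, had 3.34, 3.52 and 3.69 CPM in AZA and 5.94, 6.33 and 5.39 CPM in vehicle. ADAT3, a subunit of the enzyme that makes inosine in transfer RNA, varied more among its AZA libraries, with 4.43, 7.399 and 5.86 CPM in AZA and 8.76, 8.704 and 11.4 CPM in vehicle. All 11, picked for groups that do not overlap, were called in every alternative that tested them.

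**Figure D2:**
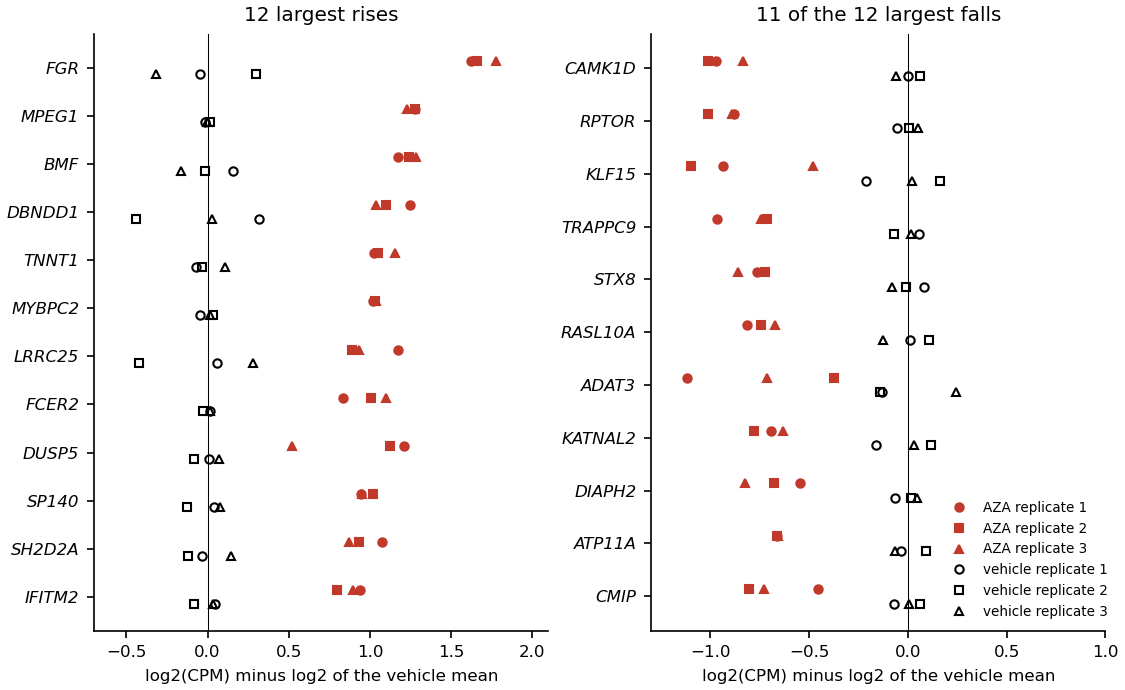
Each row is 1 of the 12 largest rises (left) or 1 of 11 of the 12 largest falls (right), and each point 1 library, filled for AZA and open for vehicle, placed at its log2 CPM minus the log2 of the vehicle mean. In every row the AZA libraries are apart from the vehicle libraries, as the rule that picked the genes required.

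Because the drug acts on methylation of CG dinucleotides, the promoter windows of these genes were compared. RefSeq windows of GRCh38.p14, from 250 bases before to 50 after a gene's start, were matched for 6 of the 12 rises and 10 of the 12 falls. The 3 rises with the fewest CG and the 3 falls with the most are printed 5′ to 3′ on the gene's strand, with each CG in capitals, to show what a window poor or rich in CG looks like. They are opposite ends picked by their counts. The other matched windows lie between them, in both directions, such as 31 CG for BMF and 18 for FGR among the rises and 14 for CAMK1D and 16 for RPTOR among the falls. A CG reads the same on both strands, and 99.7% of all windows of protein-coding genes of at least 5 CPM hold at least 1. The windows are SP140 at chr2:230225486-230225785 (plus strand, 5 CG), FCER2 at chr19:7702082-7702381 (minus strand, 6 CG), TNNT1 at chr19:55149157-55149456 (minus strand, 7 CG), CMIP at chr16:81444558-81444857 (plus strand, 55 CG), KATNAL2 at chr18:46917344-46917643 (plus strand, 55 CG) and KLF15 at chr3:126357359-126357658 (minus strand, 50 CG). The SP140 window lies inside the gene as the count table gives it, which starts at 230203110.
SP140: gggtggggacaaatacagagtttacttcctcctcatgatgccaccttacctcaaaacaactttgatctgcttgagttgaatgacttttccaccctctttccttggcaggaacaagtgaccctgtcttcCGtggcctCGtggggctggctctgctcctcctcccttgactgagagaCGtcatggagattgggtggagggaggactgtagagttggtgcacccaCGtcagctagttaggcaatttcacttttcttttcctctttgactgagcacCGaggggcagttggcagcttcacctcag
FCER2: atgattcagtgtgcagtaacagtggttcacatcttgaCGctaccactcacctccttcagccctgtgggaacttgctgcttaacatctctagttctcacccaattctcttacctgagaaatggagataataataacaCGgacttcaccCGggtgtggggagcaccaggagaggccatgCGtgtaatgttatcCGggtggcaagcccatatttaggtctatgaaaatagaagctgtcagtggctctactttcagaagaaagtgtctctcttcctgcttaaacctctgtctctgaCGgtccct
TNNT1: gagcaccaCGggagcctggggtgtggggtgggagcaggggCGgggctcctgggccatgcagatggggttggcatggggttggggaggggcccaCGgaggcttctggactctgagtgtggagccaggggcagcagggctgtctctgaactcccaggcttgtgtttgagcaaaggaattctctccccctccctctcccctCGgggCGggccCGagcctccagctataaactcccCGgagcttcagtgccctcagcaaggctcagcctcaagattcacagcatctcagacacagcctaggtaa
CMIP: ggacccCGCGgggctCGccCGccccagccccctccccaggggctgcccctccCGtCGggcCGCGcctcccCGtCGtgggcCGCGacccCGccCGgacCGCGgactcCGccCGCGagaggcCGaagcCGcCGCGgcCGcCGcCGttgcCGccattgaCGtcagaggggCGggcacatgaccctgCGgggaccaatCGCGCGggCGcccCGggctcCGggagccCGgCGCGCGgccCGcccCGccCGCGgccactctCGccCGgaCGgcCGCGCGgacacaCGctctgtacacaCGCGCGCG
KATNAL2: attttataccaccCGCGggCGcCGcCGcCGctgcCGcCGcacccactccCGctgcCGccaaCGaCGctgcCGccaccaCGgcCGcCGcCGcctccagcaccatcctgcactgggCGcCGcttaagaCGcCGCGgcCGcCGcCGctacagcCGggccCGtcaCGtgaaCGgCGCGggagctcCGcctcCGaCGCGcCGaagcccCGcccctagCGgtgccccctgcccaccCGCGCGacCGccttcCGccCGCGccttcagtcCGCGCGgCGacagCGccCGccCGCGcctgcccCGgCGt
KLF15: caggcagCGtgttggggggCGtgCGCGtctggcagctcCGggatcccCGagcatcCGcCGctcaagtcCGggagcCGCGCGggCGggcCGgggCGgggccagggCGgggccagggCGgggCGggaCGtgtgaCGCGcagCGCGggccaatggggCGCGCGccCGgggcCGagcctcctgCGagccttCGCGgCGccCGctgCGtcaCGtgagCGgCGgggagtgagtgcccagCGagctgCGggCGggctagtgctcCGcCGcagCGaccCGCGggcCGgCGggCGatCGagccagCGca

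The windows of SP140, FCER2 and TNNT1 hold a CG only here and there, and those of CMIP, KATNAL2 and KLF15 are dense with them from end to end. Over the 7588 windows matched to the 9137 protein-coding genes of at least 5 CPM (83.0%), the median was 22 CG for genes called higher, 32 for genes called lower and 27 for all. Windows of up to 10 CG made up 28.0% of those called higher, 8.18% of those called lower and 9.11% of all, and windows of at least 50 CG made up 1.96% of all.

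Rises were most frequent at promoters poor in CG. Of the 691 genes with up to 10 CG, 98 were called higher (14.2%), against 252 of the 6897 with more (3.65%) and 4.98% of all 9137. Without AZA replicate 1 there were 86 of the 691, and with the GC offset 139. The share called higher was 15.4% at up to 5 CG, 12.8% above 5 and up to 10, and then 4.36%, 3.58% and 3.38% in the next 3 ranges. It was also higher at CG-poor promoters within each of 3 ranges of transcript GC, with 14.4%, 15.7% and 12.98%. Above 10 and up to 30 CG those ranges had 4.23%, 3.73% and 3.42%, and above 30 CG 4.99%, 3.09% and 2.22%. Among genes of up to 100 kb it was 16.9% against 3.91%, and over 100 kb 6.29% against 2.43%. CG-poor genes over 100 kb were more often called lower (14.9%) than higher. CG-poor genes over 100 CPM were called higher and lower alike, in 9.84% each. With the inhibitor present, 10.9% of the 691 and 3.799% of the rest were called higher with 5-azacitidine, beside 4.74% of all 9137. No methylation was measured here, so these are counts of a sequence feature and not of methylated sites.

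Falls followed the genomic span of the gene. Of the protein-coding genes of at least 5 CPM, 8.58% were called lower. The share was 4.87% to 4.88% in the 3 ranges up to 25 kb, 6.21% from 25 to 50 kb, 8.27% from 50 to 100 kb and 14.5% from 100 to 200 kb. It then reached 26.2% of 298 genes from 200 to 300 kb, 37.6% of 170 genes from 300 to 500 kb and 50.9% of 57 genes over 500 kb. Over 300 kb, 93 of 227 genes were lower (41.0%) and 6 higher. Without AZA replicate 1 the 93 were 88, and with the offset for transcript GC 104. The order held in each range of transcript GC: up to 45% GC, 26.6% of genes over 300 kb were lower, against 0.596% of those up to 50 kb. From 45 to 52% GC the shares were 52.6% and 2.88%, and above 52% GC 74.1% of 27 long genes and 9.68% of short genes. By level, at 5 to 20, 20 to 100 and over 100 CPM, 31.1%, 48.8% and 37.5% (of 16) of genes over 300 kb were lower. Of those up to 50 kb it was 2.80%, 4.69% and 9.28%. The share called lower also rose with exonic length, from 3.97% up to 2 kb to 15.0% over 12 kb. Span and exonic length were not separated. The genes called lower had a median span of 70.6 kb, those called higher 26.6 kb and all 33.6 kb.

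Each library showed the difference. The median log2 deviation over the 227 long genes, minus that over the 5798 genes up to 50 kb, was taken per library. It was −0.083, −0.089 and −0.11 in AZA replicates 1 to 3, against 0.091, 0.14 and 0.053 in vehicle replicates 1 to 3. The groups did not overlap (exact permutation test, two-sided, p = 0.1, the smallest possible). It was −0.14, −0.080 and −0.019 in the HDAC3i+AZA libraries and 0.055, 0.090 and 0.077 in the HDAC3i libraries, again without overlap. On the inhibitor, 24.7% of the long genes were called lower with 5-azacitidine, beside 4.95% of all protein-coding genes of at least 5 CPM. The 4 called falls of longest span were TBC1D5, ANKS1B, AUTS2 and WWOX. TBC1D5, a regulator of endosomal transport of 1288 kb, had 74.99, 71.9 and 74.3 CPM in AZA and 94.5, 102 and 102 CPM in vehicle. AUTS2, a partner of a Polycomb complex of 1195 kb, had 28.1, 24.7 and 23.9 CPM in AZA and 36.3, 39.5 and 39.03 CPM in vehicle. WWOX, a tumour suppressor at a fragile site, spans 1113 kb and had 12.1, 11.4 and 10.99 CPM in AZA and 15.6, 15.4 and 14.5 CPM in vehicle. The groups were apart in these 3 (log2 change −0.43, −0.58 and −0.40). ANKS1B, of 1258 kb, was scarce, at 0.273 to 0.489 CPM in AZA and 0.678 to 0.912 CPM in vehicle, and its call did not hold without AZA replicate 1 (edgeR adjusted p = 0.053).

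**Figure D3:**
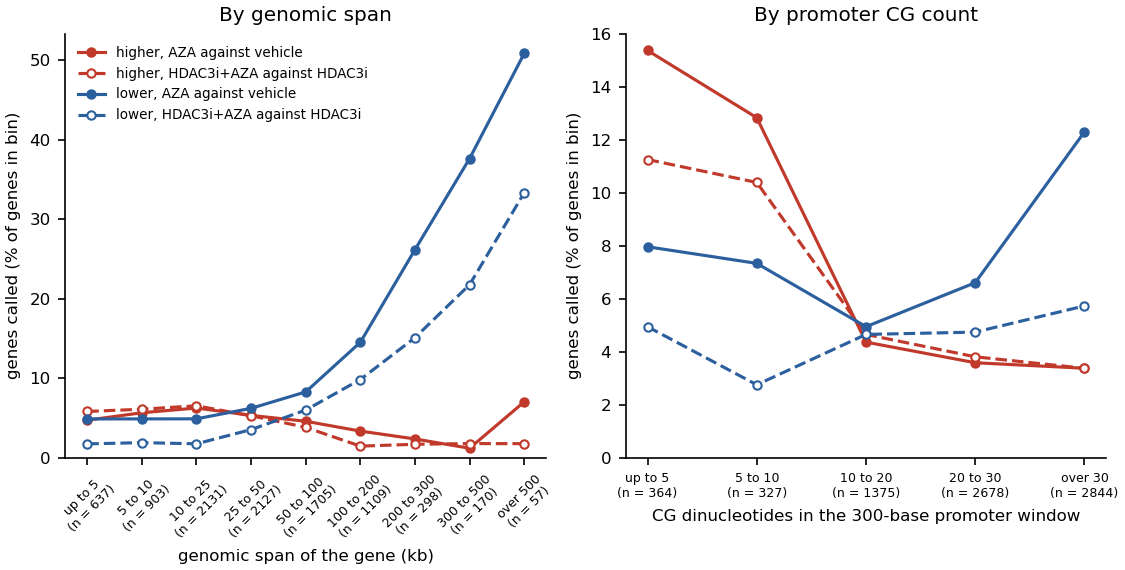
Share of protein-coding genes of at least 5 CPM called higher (red) or lower (blue) with 5-azacitidine, by genomic span in kb (left, 9137 genes) and by CG dinucleotides in the 300-base promoter window (right, 7588 genes), solid for AZA against vehicle and dashed for HDAC3i+AZA against HDAC3i. The share called lower climbs to 50.9% over 500 kb, and the share called higher is 15.4% at up to 5 CG.

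Called genes were unevenly spread over chromosomes, and so was base composition. Of the protein-coding genes of at least 5 CPM, 15.4% on chromosome 19, 13.6% on chromosome 16, 14.2% on chromosome 22 and 15.8% on chromosome 21 were called lower, against 4.15% on chromosome 4. The median transcript GC was 59.1%, 54.5%, 56.2% and 49.02% on those 4 and 41.3% on chromosome 4, and its part in these shares was not tested.

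Several genes that were almost silent in vehicle came up to a low level. There were 9 genes with 0 counts in all vehicle libraries that were called higher. Such genes pass the filter through other groups and can only be called higher. A vehicle mean under 0.5 CPM was found for 3757 of the 17869 tested genes. Among protein-coding genes under 0.5 CPM in vehicle and at least 0.5 CPM in AZA, GFI1B, a repressor of the erythroid and megakaryocyte lineages, had 1.89, 1.67 and 1.17 CPM in AZA and 0.414, 0.246 and 0.424 CPM in vehicle. KCNH3, a potassium channel, had 0.886, 1.201 and 1.93 CPM in AZA and 0.166, 0.409 and 0.198 CPM in vehicle. RGS1, which dampens G-protein signalling in B cells, had 0.572, 1.26 and 0.923 CPM in AZA and 0.387, 0.109 and 0.113 CPM in vehicle. The rule asked for groups apart in these genes too, and 2 vehicle libraries held 4 counts of RGS1 each. IGHA1 and IGHG3, constant regions of switched immunoglobulin, were named by the same rule. IGHA1, of IgA, had 2.09, 1.26 and 1.47 CPM in AZA and 0.138, 0.628 and 0.198 CPM in vehicle. IGHG3, of IgG, had 0.829, 0.874 and 1.11 CPM in AZA and 0.276, 0.191 and 0.339 CPM in vehicle. These constant-region genes have near-identical relatives, between which reads that map to several places were split in fractions, so their single values are uncertain. MMP15, a membrane-bound matrix metalloproteinase, C3, the central complement protein, and AHNAK2 completed the 8, with log2 changes of 2.80, 1.84 and 1.84 and no more than 26 counts in a library.

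Non-coding genes that were called were more often higher than lower. Of 2937 tested, 92 were called higher (3.13%, beside 4.31% of all tested genes) and 17 lower (0.579%, beside 4.75%). Of 12520 protein-coding genes 635 were higher (5.07%) and 819 lower (6.54%). Levels were not matched between these classes. Among all tested genes, those up to 1 CPM had 121 of 5260 higher and 14 lower. Those from 1 to 5 CPM had 149 of 2810 higher and 35 lower. LINC01484 had 15.7, 15.9 and 15.6 CPM in AZA and 7.79, 7.23 and 7.596 CPM in vehicle (log2 change 1.06 ± 0.10 SE). LINC02642 had 2.11, 2.18 and 2.52 CPM in AZA and 0.967, 1.06 and 0.621 CPM in vehicle. LINC00524 had 2.54, 2.76 and 2.74 CPM in AZA and 1.24, 1.09 and 0.9601 CPM in vehicle. AZA was above vehicle in every library of these 3, as the rule for non-coding genes required. AFTPH-DT, transcribed away from the start of AFTPH, had 2.71 to 2.92 CPM in AZA and 1.27 to 1.497 CPM in vehicle. Among the falls, TCL6, near the TCL1 oncogenes, had 6.23, 5.27 and 4.78 CPM in AZA and 7.71, 7.23 and 8.53 CPM in vehicle. ZNF584-DT, MIF4GD-DT and MIR600HG were lower by −0.44, −0.43 and −0.34 on the log2 scale, and none of the 3 was called without AZA replicate 1 (edgeR adjusted p = 0.20, 0.10 and 0.071). Counting ignored strand, so reads of a divergent or antisense RNA cannot be told from those of an overlapping gene.

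Among the genes of highest CPM the changes were slight. IGHM, the constant region of the IgM heavy chain, had 6714, 6141 and 6380 CPM in AZA and 7834, 7189 and 8378 CPM in vehicle. EEF2, the translation elongation factor, had 3285, 3370 and 3281 CPM in AZA and 4046, 3769 and 4095 CPM in vehicle. Both were lower in each AZA library (log2 change −0.28 ± 0.05 and −0.26 ± 0.05). TUBA1B, an alpha-tubulin, MYBL2, a cell-cycle transcription factor, PKM, a pyruvate kinase, and CALR, a chaperone of the endoplasmic reticulum, differed by −0.24, −0.22, −0.21 and −0.19, and the calls of MYBL2 and CALR did not hold with the GC offset (edgeR adjusted p = 0.098 and 0.077). TMSB4X, an actin-binding peptide, had 998, 834 and 890.2 CPM in AZA and 726, 704 and 739 CPM in vehicle. JCHAIN, which joins immunoglobulin into polymers, had 979.7, 958 and 914 CPM in AZA and 791, 808 and 819.5 CPM in vehicle. These rises were of 0.33 ± 0.06 and 0.24 ± 0.05. HLA-DRA, CDV3, ST6GAL1, a sialyltransferase of B cells, and MS4A1, the CD20 antigen, differed by 0.22, 0.19, 0.18 and 0.17. Without AZA replicate 1 neither ST6GAL1 nor MS4A1 was called (edgeR adjusted p = 0.056 and 0.083), and MS4A1 was not called with the offset (edgeR adjusted p = 0.11).

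Gene lists were read by how many of their tested members were called in each direction, beside 4.31% higher and 4.75% lower over all tested genes. Genes of higher level leaned lower in general. Of protein-coding genes of at least 5 CPM, 4.98% were higher and 8.58% lower, and of all genes over 100 CPM 12.3% were lower. The lists were not matched by level. The lists overlap and were not tested as sets. Lists and members were chosen with earlier results of these data known, so their counts are not independent of that choice. Where edgeR called no member in a direction, the number at an unadjusted p under 0.05 and the number called by DESeq2 follow. Antigen presentation through MHC class II, which shows peptides to helper T cells, had more members higher than lower: 7 of 21 were called higher and none lower (2 unadjusted, 0 by DESeq2), with a median log2 change of 0.17. There were 6 without AZA replicate 1. HLA-DRA, the alpha chain of HLA-DR, had 1240, 1141 and 1102 CPM in AZA and 996, 976 and 1016 CPM in vehicle. HLA-DMB, which helps load peptides, had 99.2, 104 and 101 CPM in AZA and 86.7, 88.3 and 89.6 CPM in vehicle. HLA-DOB, which restrains that loading, had 12.6, 13.2 and 14.4 CPM in AZA and 10.5, 9.71 and 11.04 CPM in vehicle. Every AZA library was above every vehicle library in these 3. For called genes, here and in the lists below, such separation was nearly set by the choice. The libraries did not overlap for 758 of the 770 genes called higher and 834 of the 849 called lower. CIITA, the factor that switches the class II genes on, was not called, at 79.6, 71.97 and 84.1 CPM in AZA and 83.4, 87.7 and 90.3 CPM in vehicle (log2 difference −0.15, edgeR adjusted p = 0.20). HLA genes resemble each other closely, and reads shared between them were split in fractions. Of 21 genes of MHC class I presentation, 2 were called higher, among them B2M, the light chain (log2 change 0.25), and 2 lower, among them NLRC5, the class I activator (−0.24). With the GC offset 5 were higher and none lower, and NLRC5 was no longer called (edgeR adjusted p = 0.066).

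Interferon-stimulated genes were called higher in 15 of 60 cases and lower in none (1 unadjusted, 0 by DESeq2), with a median log2 change of 0.18. The count was 14 without AZA replicate 1 and 20 with the GC offset. OAS3, which makes the activator of RNase L, had 37.6, 34.8 and 39.4 CPM in AZA and 25.7, 26.2 and 27.1 CPM in vehicle. IRF7, the factor that amplifies interferon genes, had 17.1, 18.6 and 18.2 CPM in AZA and 11.99, 10.97 and 15.1 CPM in vehicle. SP100, a nuclear-body protein, had 52.7, 54.2 and 51.02 CPM in AZA and 40.02, 40.4 and 40.5 CPM in vehicle. No library of vehicle reached the AZA range in the 3, whose log2 changes were 0.50, 0.51 and 0.39. PARP9 had a larger change at a lower level, with 2.86, 2.35 and 2.71 CPM in AZA and 1.16, 1.04 and 0.847 CPM in vehicle (log2 change 1.37). Its partner DTX3L, read from the same promoter region, had 2.63, 2.35 and 2.74 CPM in AZA and 1.66, 1.99 and 1.61 CPM in vehicle. DTX3L was called in 12 of the 17 alternatives. Of the sensors of foreign nucleic acid and their adaptors, 6 of 26 were higher and none lower (2 unadjusted, 0 by DESeq2), and without AZA replicate 1 5 and 1. IFIH1, the sensor MDA5 of long double-stranded RNA, had 19.5, 23.2 and 23.4 CPM in AZA and 17.1, 19.6 and 17.1 CPM in vehicle, with overlap. AIM2, a sensor of DNA, had 35.6, 36.7 and 32.98 CPM in AZA and 28.4, 29.7 and 31.2 CPM in vehicle. Of 15 host genes of endogenous retroviruses only 3 passed the filter, of which ERVK13-1 was higher (log2 change 0.31).

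Messenger RNAs of several B-cell surface receptors were higher. Fc, complement and inhibitory receptors were called higher in 10 of 26 cases and lower in none (0 unadjusted, 0 by DESeq2), with a median log2 change of 0.19. The count without AZA replicate 1 was 6. FCGR2B, the inhibitory receptor for IgG, had 24.7, 25.7 and 27.8 CPM in AZA and 15.4, 17.2 and 17.1 CPM in vehicle. CD72, another inhibitory receptor, had 70.02, 67.4 and 70.1 CPM in AZA and 51.5, 54.2 and 50.3 CPM in vehicle. FCRL3, an Fc receptor-like protein, had 2.03, 1.42 and 2.44 CPM in AZA and 0.608, 1.01 and 0.678 CPM in vehicle. Groups were apart in all 3 (log2 change 0.66, 0.41 and 1.35). FCGR2C and FCGR2A rose by 0.92 and 1.32, but the 3 FCGR2 genes share long stretches of sequence. Costimulatory and checkpoint genes were higher in 7 of 26 cases and lower in 1, and without AZA replicate 1 in 8 and none. CD86, the ligand of CD28, had 68.05, 72.8 and 65.4 CPM in AZA and 50.3, 43.8 and 43.3 CPM in vehicle. CD40, the receptor for T-cell help, had 68.7, 73.8 and 74.5 CPM in AZA and 62.1, 58.4 and 58.1 CPM in vehicle. CD70 and TNFSF9, ligands that stimulate T cells, rose by 0.28 and 0.36 on the log2 scale.

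Genes of naive and memory B cells and of migration were called higher in 11 of 25 cases and lower in 2, with a median log2 change of 0.30. The counts were 10 and 2 without AZA replicate 1. CXCR5, the receptor that leads B cells into follicles, had 4.52, 4.31 and 4.72 CPM in AZA and 2.51, 2.54 and 2.005 CPM in vehicle. KLF2, a factor of resting lymphocytes, had 6.52, 5.87 and 5.62 CPM in AZA and 4.72, 3.55 and 3.93 CPM in vehicle. TNFRSF13B, the BAFF and APRIL receptor TACI, had 17.4, 18.8 and 20.1 CPM in AZA and 14.1, 14.7 and 14.7 CPM in vehicle. The lowest AZA library was above the highest vehicle library in each. ITGB2 and ITGB7, integrin chains of homing lymphocytes, were lower by −0.24 and −0.18, and ITGB7 was not called without AZA replicate 1 (edgeR adjusted p = 0.091). Of 29 germinal-centre genes, 9 were higher and 4 lower, and without AZA replicate 1 6 and 4. CD38 had 259, 256 and 245 CPM in AZA and 188, 196 and 191 CPM in vehicle. KLHL14 had 1.97, 1.88 and 1.74 CPM in AZA and 0.497, 0.873 and 0.791 CPM in vehicle. SPIB, a transcription factor of germinal-centre B cells, rose by 0.37. The factors TCF3, BACH2 and PAX5 fell by 0.42, 0.30 and 0.21. TCF3 had 674, 682 and 703 CPM in AZA and 925, 875 and 954 CPM in vehicle. BCL6, the repressor that defines the germinal centre, was not called, at 234, 215 and 209 CPM in AZA and 238, 232 and 243 CPM in vehicle.

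B-cell receptor signalling and plasma-cell genes moved both ways. Of 30 signalling genes 3 were higher and 7 lower, and without AZA replicate 1 2 and 7. BTK, the kinase that links the receptor to phospholipase, had 235, 224 and 224 CPM in AZA and 194, 196 and 200.04 CPM in vehicle. PTPN6, the phosphatase SHP-1 that dampens the signal, had 124, 125 and 134 CPM in AZA and 104, 103 and 104 CPM in vehicle. Both were higher in each AZA library. Of 13 SRC-family kinases and their regulators 3 were higher, among them FGR and PTPN6, and 1 lower. VAV2, PRKCB, INPP5D and NFATC2 differed by −0.43, −0.22, −0.22 and −0.36 on the log2 scale. The median span of the 30 genes was 86.9 kb, beside 23.8 kb for all tested genes. Of 19 plasma-cell genes 3 were higher and 3 lower. XBP1, the factor of secretory cells, had 123, 123 and 131 CPM in AZA and 95.5, 90.7 and 102 CPM in vehicle. IRF4, a factor of plasma cells and activated B cells, had 79.5, 77.6 and 80.4 CPM in AZA and 104, 117 and 110.3 CPM in vehicle. The groups were apart in both, in opposite directions. PRDM1, the Blimp-1 repressor of plasma cells, was not called, at 2.29, 2.38 and 2.497 CPM in AZA and 2.43, 2.32 and 2.09 CPM in vehicle.

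Genes best known from other cell types were among the rises. Of 37 tested myeloid-expressed genes, 12 were higher and 1 lower, with a median log2 change of 0.20. There were 13 and none without AZA replicate 1. TYROBP, the adaptor DAP12, had 1.143, 0.956 and 1.17 CPM in AZA and 0.193, 0.355 and 0.395 CPM in vehicle. CYBB, the catalytic subunit of the phagocyte oxidase, which B cells also express, had 144, 159 and 151 CPM in AZA and 119.7, 117 and 119 CPM in vehicle. FPR1, a receptor for bacterial peptides, had 0.972, 0.928 and 0.814 CPM in AZA and 0.331, 0.327 and 0.395 CPM in vehicle. All 3 were higher in each AZA library. The 8 monocyte and macrophage markers summed to 1.47 to 1.85 CPM in AZA and 0.859 to 2.21 CPM in vehicle, none of the 4 tested was called, and CD163, S100A8 and S100A9 had 0 counts. Of 22 tested T- and NK-cell genes, 3 were higher and 1 lower, and with the GC offset 7 and none. TRBC2, the constant region of the T-cell receptor beta chain, had 136, 121 and 129 CPM in AZA and 96.7, 88.4 and 102 CPM in vehicle. TRAC, that of the alpha chain, had 118, 103 and 107 CPM in AZA and 86.5, 83.7 and 95.9 CPM in vehicle. The T-cell markers, TRAC and CD28 among them, summed to 277 to 293 CPM in AZA and 232 to 238 CPM in vehicle, while CD2 and CD8A had 0 counts. Of 23 tested muscle-type contractile genes, 4 were higher and 1 lower.

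Genes that methylation is known to silence gave unequal counts. Of 80 cancer-testis and germline genes, 13 passed the filter and none was called by edgeR in either direction, none had an unadjusted p under 0.05, and DESeq2 called 0. The median log2 change of the 13 was 0.028. Of 42 imprinted genes, which are methylated on 1 parental copy, 21 were tested and none was called by edgeR, again with 0 at an unadjusted p under 0.05 and 0 by DESeq2. A gene without calls may still have changed by less than these libraries could show. Of 47 tumour suppressors often silenced by promoter methylation, 30 were tested, of which 8 were higher and 2 lower, with a median of 0.043. Without AZA replicate 1 there were 10 and 2. RASSF6 had 25.4, 33.6 and 30.8 CPM in AZA and 19.003, 18.9 and 21.7 CPM in vehicle. MGMT, the repair enzyme for alkylated guanine, had 8.95, 9.36 and 11.1 CPM in AZA and 13.1, 14.7 and 16.5 CPM in vehicle. RASSF6 was higher and MGMT lower in each AZA library (log2 change 0.59 and −0.59).

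Genes of the methylation machinery were called in both directions, beside 9.06% of all tested genes called in either. Of 24 writers, guides and erasers of DNA methylation, 1 was higher and 2 lower, and without AZA replicate 1 1 and 3. UHRF1, which guides DNMT1 to newly copied DNA, had 247, 247 and 248 CPM in AZA and 302, 304 and 306 CPM in vehicle (log2 change −0.30 ± 0.05 SE). IDH2, which makes a cofactor of the demethylating TET enzymes, had 319, 309.5 and 324 CPM in AZA and 242, 234 and 269 CPM in vehicle. MBD3, a member of the family of methyl-CG binding proteins, had 85.9, 86.1 and 90.1 CPM in AZA and 103, 95.2 and 112 CPM in vehicle. The groups were apart in all 3. The maintenance enzyme DNMT1 had 749.6, 670.3 and 687 CPM in AZA and 792, 787 and 775 CPM in vehicle. Its libraries did not overlap either, but the test missed the threshold (log2 difference −0.16, edgeR adjusted p = 0.055). Without AZA replicate 1 it was called (log2 difference −0.21, edgeR adjusted p = 0.013), and it was called in 6 of the 17 alternatives. DNMT3A and DNMT3B, which set new methylation, differed by 0.06 and 0.05 and were not called, and the libraries overlapped. Of 27 genes that take up, activate or break down the drug, 2 were higher and 2 lower. NT5C3A, a nucleotidase that removes phosphate from pyrimidines, had 89.4, 90.7 and 83.6 CPM in AZA and 68.9, 70.2 and 68.1 CPM in vehicle. RRM2B, a small subunit of ribonucleotide reductase that p53 controls, had 127, 145 and 138 CPM in AZA and 112, 117 and 115 CPM in vehicle.

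Genes that stop the cell cycle were among the rises, and so were genes that promote apoptosis and genes that restrain it. All 5 called of 17 CDK inhibitors and cell-cycle brakes were higher and none lower (1 unadjusted, 0 by DESeq2), and without AZA replicate 1 4. CDKN1A, the inhibitor p21, had 2.49, 3.14 and 3.26 CPM in AZA and 1.19, 1.01 and 0.791 CPM in vehicle (log2 change 1.57 ± 0.17, edgeR adjusted p = 4.46e-07). CDKN1B, the inhibitor p27, had 41.9, 42.7 and 41.9 CPM in AZA and 35.2, 34.6 and 34.9 CPM in vehicle. BTG2, an antiproliferative p53 target, had 87.1, 82.9 and 85.5 CPM in AZA and 65.4, 64.6 and 66.5 CPM in vehicle. The groups did not overlap for any of the 3. Of 29 p53 targets 4 were higher and none lower (4 unadjusted, 1 by DESeq2), with and without AZA replicate 1. Of 34 genes of the BCL2 family and apoptosis, 5 were higher and 2 lower, and without AZA replicate 1 5 and none. BIK, like BMF a BH3-only protein that promotes apoptosis, was lower (log2 change −0.22), as was BCL2L1, which restrains it (−0.22). Neither was called without AZA replicate 1 (edgeR adjusted p = 0.19 and 0.065). BCL2A1, which also restrains apoptosis, was higher (log2 change 0.61), and was called in 14 of the 17 alternatives. BCL2L11, the BH3-only protein BIM, had 29.1, 27.9 and 30.8 CPM in AZA and 21.05, 25.6 and 21.7 CPM in vehicle. CASP8, the initiator caspase of death receptors, had 49.5, 48.1 and 44.3 CPM in AZA and 40.4, 37.9 and 37.8 CPM in vehicle. BIRC3, an inhibitor of apoptosis that NF-kB induces, had 93.6, 106 and 101 CPM in AZA and 76.8, 72.8 and 73.6 CPM in vehicle. Of 45 NF-kB and AP-1 factors and targets, 10 were higher and 2 lower, and without AZA replicate 1 7 and 2. REL, the NF-kB subunit c-Rel, had 17.2, 21.9 and 23.4 CPM in AZA and 14.9, 14.4 and 15.4 CPM in vehicle.

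More genes of amino acid supply were called lower than higher. Of 47 targets of ATF4, the factor that answers to amino acid shortage, and related genes, 19 were lower and 1 higher, with a median log2 change of −0.15. Without AZA replicate 1 there were 16 and 2, and with the GC offset 13 and 1. PHGDH, which starts serine synthesis, had 239, 230.3 and 259 CPM in AZA and 323, 316 and 346 CPM in vehicle. SLC7A5, a carrier of large neutral amino acids, had 510.3, 484 and 494 CPM in AZA and 637, 624 and 649.7 CPM in vehicle. ATF5, a transcription factor of the same response, had 29.8, 28.7 and 32.8 CPM in AZA and 43.2, 43.3 and 45.6 CPM in vehicle. Groups were apart in all 3 (log2 change −0.43, −0.36 and −0.53). MTHFD1L, of mitochondrial folate metabolism, and GPT2, an alanine transaminase, differed by −0.41 and −0.38, and the transfer RNA charging enzymes MARS1 and GARS1 by −0.25 and −0.24.

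Genes of mTOR complexes, glycolysis and ribosome building were also lower more often than higher. So were protein-coding genes of at least 5 CPM, at 8.58% lower and 4.98% higher. Of 57 mTOR genes 7 were lower and 1 higher, and without AZA replicate 1 6 and 2. Beside RPTOR, the kinase MTOR had 148, 137 and 139 CPM in AZA and 166, 171 and 164 CPM in vehicle. NPRL3, of the complex that restrains mTOR complex 1 when amino acids are short, had 42.6, 44.01 and 43.9 CPM in AZA and 58.1, 59.4 and 62.5 CPM in vehicle. RRAGD, a GTPase that brings mTOR to lysosomes, was the gene that rose, with 24.2, 25.1 and 23.3 CPM in AZA and 18.4, 17.5 and 18.6 CPM in vehicle. Of 36 glycolysis and hypoxia genes 8 were lower and 1 higher, with a median of −0.10, and without AZA replicate 1 9 and none. HK2, a hexokinase of tumour cells, had 99.7, 98.9 and 97.6 CPM in AZA and 129, 120.2 and 119 CPM in vehicle. PFKP, a phosphofructokinase, had 99.2, 108 and 109 CPM in AZA and 139.8, 125 and 143 CPM in vehicle. Both were lower in each AZA library. Of 45 genes of MYC and ribosome biogenesis 9 were lower and none higher (1 unadjusted, 0 by DESeq2), and without AZA replicate 1 7. With the GC offset 4 were lower, so that the count fell by more than 1.5 times. MYC had 224, 210.4 and 205 CPM in AZA and 264, 246 and 247 CPM in vehicle. FBL, the methyltransferase of ribosomal RNA, had 117, 122 and 121 CPM in AZA and 142, 139 and 137 CPM in vehicle. None of 79 cytosolic ribosomal proteins was called by edgeR (9 at an unadjusted p under 0.05) or by DESeq2 (0).

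Of 34 genes of cholesterol and fatty acid synthesis 7 were higher and 5 lower, and without AZA replicate 1 7 and 3. With the GC offset 8 were higher and 2 lower, and ACLY, which makes acetyl-CoA in the cytosol, was no longer called (edgeR adjusted p = 0.11). The 7 that rose make cholesterol. MSMO1, a sterol oxidase, had 34.6, 34.6 and 29.7 CPM in AZA and 25.5, 24.8 and 24.7 CPM in vehicle. HMGCS1, which makes HMG-CoA, had 224, 262 and 240.03 CPM in AZA and 197, 209 and 203 CPM in vehicle. The 5 that fell included FASN and ACACA, enzymes of fatty acid synthesis. FASN, the fatty acid synthase, had 410.2, 418 and 440.2 CPM in AZA and 544, 559 and 563 CPM in vehicle. ACACA, which makes its substrate malonyl-CoA, had 50.1, 50.5 and 53.1 CPM in AZA and 67.5, 64.2 and 64.4 CPM in vehicle. Groups did not overlap in these 4 genes. SREBF1 and SCAP, of the factor that controls both pathways, differed by −0.17 and −0.19, and neither was called without AZA replicate 1 (edgeR adjusted p = 0.11 and 0.050) or with the GC offset (edgeR adjusted p = 0.41 and 0.24).

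Histone-modifying enzymes were lower more often than higher. Of 41 genes of histone methylation 11 were lower and 2 higher, with a median of −0.11, and without AZA replicate 1 10 and 2. NSD2, a methyltransferase for lysine 36 of histone H3, had 301, 277 and 281 CPM in AZA and 349.6, 363 and 356 CPM in vehicle. DOT1L, that for lysine 79, had 78.6, 75.4 and 81.2 CPM in AZA and 103, 103 and 107 CPM in vehicle. KDM4C, a demethylase, had 35.7, 36.9 and 36.5 CPM in AZA and 46.5, 48.1 and 44.3 CPM in vehicle. Groups were apart in all 3. Of 30 genes of histone acetylation and deacetylation 5 were lower and none higher (2 unadjusted, 2 by DESeq2), with and without AZA replicate 1, among them HDAC4, CREBBP, TBL1X and NCOR1. NCOR1 and TBL1X belong to the co-repressor complex of HDAC3, while HDAC3 itself was not called, at 83.5, 84.4 and 89.6 CPM in AZA and 88.9, 89.2 and 87.9 CPM in vehicle. The median span was 64.0 kb in the first list and 46.7 kb in the second, and its part in their counts was not tested.

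Proliferation and repair genes were called in both directions, beside 9.06% of all tested genes called in either. Of 52 replication and S-phase genes 3 were higher and 4 lower, and without AZA replicate 1 1 and 3. With the GC offset 4 were higher and 1 lower. Of 69 genes of DNA damage signalling and repair 1 was higher and 3 lower, and with the GC offset 4 and 3. ATM, the kinase that answers to double-strand breaks, had 84.7, 95.1 and 91.6 CPM in AZA and 79.7, 76.9 and 67.999 CPM in vehicle. Its call did not hold without AZA replicate 2 or without vehicle replicate 3 (edgeR adjusted p = 0.074 and 0.098). PRKDC, the kinase of end joining, had 401, 448 and 451 CPM in AZA and 508, 565 and 511 CPM in vehicle. Of 56 mitotic genes 5 were higher and 1 lower, and with the GC offset 9 and 1. HMMR, a spindle protein, had 179, 167 and 159 CPM in AZA and 136, 129 and 129 CPM in vehicle, and CDK1 had 246, 267 and 249.7 CPM in AZA and 231, 183 and 204 CPM in vehicle. FOXM1, the factor that drives mitotic genes, was lower, with 191, 165 and 168 CPM in AZA and 203, 212 and 206 CPM in vehicle.

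Lysosome and autophagy genes were higher in 9 of 59 cases and lower in 2, and without AZA replicate 1 in 8 and 2. With the GC offset 16 were higher and 1 lower. CTSZ, a lysosomal protease, had 210.4, 191 and 191 CPM in AZA and 161, 166 and 164 CPM in vehicle. NEU1, a sialidase, had 40.5, 39.04 and 42.9 CPM in AZA and 30.9, 29.8 and 34.2 CPM in vehicle. SQSTM1, the autophagy receptor p62, had 63.2, 65.1 and 65.9 CPM in AZA and 56.8, 45.1 and 53.5 CPM in vehicle. Each was higher in every AZA library. Of 23 heat shock genes none was higher (5 unadjusted, 0 by DESeq2) and 2 lower, and without AZA replicate 1 none and 4. With the GC offset the direction turned, to 2 higher and none lower. Of 30 genes of folding in the endoplasmic reticulum 1 was higher, which was XBP1, and 4 lower, and with the GC offset 2 and 2. Of 56 nuclear-encoded subunits of the respiratory chain 3 were higher and 1 lower.

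**Figure D4:**
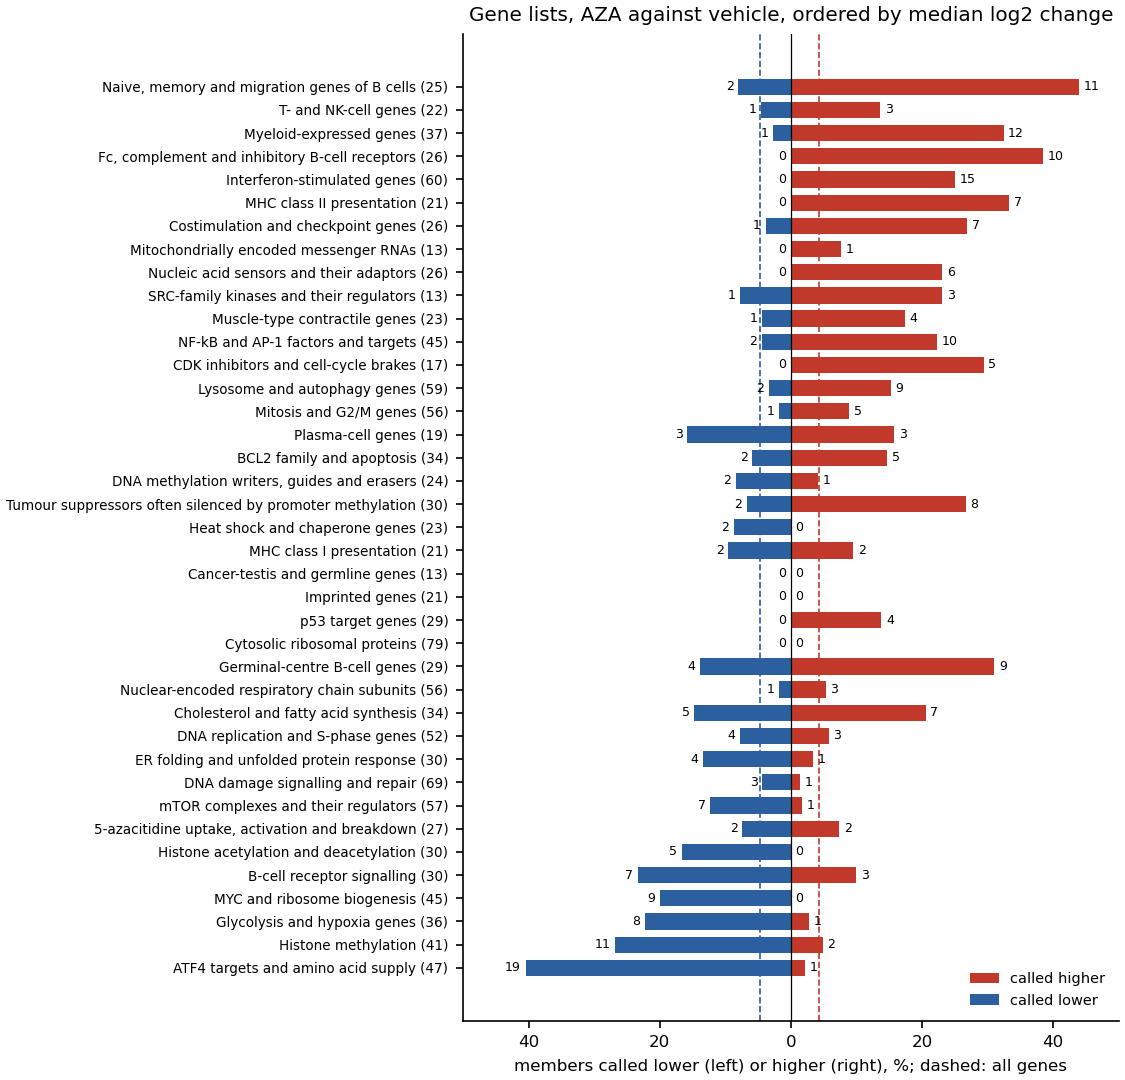
Bars give the percent of tested members of each of 39 lists (members in brackets, at least 10) called higher (red, right) or lower (blue, left) in AZA against vehicle, with the number of genes at the end and dashed lines at 4.31% and 4.75%, the shares of all tested genes. The lists run from the highest median log2 change (naive, memory and migration genes, 0.30) to the lowest (ATF4 targets, −0.15).

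Mitochondrial RNA showed a difference that did not rest on AZA replicate 1 beside one that did. Mitochondrially encoded genes took 13.8%, 10.01% and 10.2% of the counts in AZA replicates 1 to 3 and 9.59%, 9.96% and 10.5% in vehicle replicates 1 to 3. The groups overlapped (exact permutation test, two-sided, p = 0.4), and the difference of 1.32 percentage points was 0.099 without AZA replicate 1. The 2 mitochondrial ribosomal RNAs took 1.23%, 1.21% and 1.142% in AZA and 0.941%, 0.965% and 0.961% in vehicle. Here the groups did not overlap (exact p = 0.1, the smallest possible), and the difference of 0.24 percentage points was 0.22 without AZA replicate 1. Of the 13 mitochondrial messenger RNAs only MT-ND3 was called, with 1941, 1647 and 1472 CPM in AZA and 1393, 1276 and 1333 CPM in vehicle, and not without AZA replicate 1 (edgeR adjusted p = 0.058). Libraries were selected for poly(A), so these shares also depend on tails.

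The same drug was read again in the 6 libraries with the inhibitor, which share no sample with the AZA and vehicle groups. In HDAC3i+AZA against HDAC3i, 1312 genes were called (7.34%), 806 higher (4.51%) and 506 lower (2.83%). Of the 770 genes called higher with AZA alone, 672 (87.3%) had the same sign on the inhibitor, 315 (40.9%) were called higher there too and 6 were called lower. Of the 849 called lower, 741 (87.3%) had the same sign, 159 (18.7%) were called lower too and 3 higher. Of all tested genes 53.1% were positive. The changes were smaller with the inhibitor present. The median was 0.24 there, against 0.41 without it, for the genes called higher, and −0.12, against −0.28, for those called lower. Genes chosen for a large change in AZA against vehicle are bound to look smaller in other samples, so that the difference in medians is a description. Across the 9753 genes of at least 5 CPM, Pearson's r between the log2 changes was 0.43, over genes, which are not independent replicates.

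**Figure D5:**
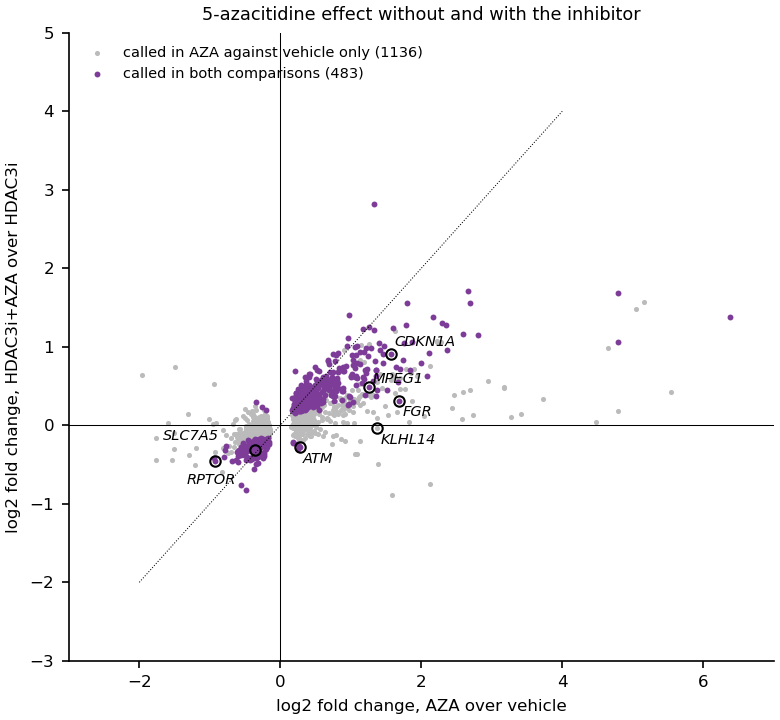
Each point is 1 of the 1619 genes called in AZA against vehicle, with its log2 fold change there on the x axis and that of HDAC3i+AZA over HDAC3i on the y axis, purple where called in both. Most points share a sign, and most of those with a large rise lie below the dotted line of equal change.

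The test of the difference between these effects, the interaction, called 128 genes (0.716%), 47 above 0 (0.263%) and 81 below 0 (0.453%), of which 34 were among the 770 and 34 among the 849. For FGR the log2 difference with 5-azacitidine was 0.32 on the inhibitor, against 1.68 without it (interaction −1.37 ± 0.13, edgeR adjusted p = 2.1e-06). Its level was 86.6, 83.2 and 83.2 CPM in HDAC3i+AZA and 69.5, 63.1 and 70.8 CPM in HDAC3i. For MPEG1 it was 0.49 with and 1.26 without the inhibitor, and its level was 186, 193 and 229 CPM in HDAC3i+AZA and 141, 143 and 148 CPM in HDAC3i. In both, the log2 difference was smaller on the inhibitor, and the level was above that of either group without it. CDKN1A differed by 0.91 with and 1.57 without the inhibitor, at 65.99, 63.995 and 60.7 CPM in HDAC3i+AZA and 30.6, 34.5 and 36.7 CPM in HDAC3i, and the interaction was not called (−0.66, edgeR adjusted p = 0.096). RPTOR differed by −0.45 with and −0.93 without it, at 67.8, 61.5 and 66.8 CPM in HDAC3i+AZA and 87.2, 87.4 and 93.01 CPM in HDAC3i. SLC7A5 differed by −0.31 with and −0.36 without it, at 402, 384 and 389 CPM in HDAC3i+AZA and 482, 484 and 494 CPM in HDAC3i. For SLC7A5 the interaction was not called (0.05, edgeR adjusted p = 0.83). ATM differed by −0.28 with and 0.27 without the inhibitor (interaction −0.55, edgeR adjusted p = 0.0069). Since the genes were chosen by AZA against vehicle, which enters the interaction with a minus sign, the choice itself pushes the interaction to the side opposite to the change.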

How the data were processed

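RNA was measured in 12 libraries of 4 groups. RNA was selected for poly(A) tails, per the labels' protocols. The deposited table holds an estimated count of reads per gene, not normalized. The authors counted with featureCounts 2.1.1 on Ensembl release 114 (build GRCh38), with no strand option in the recorded command and splitting reads that map to several places in fractions, per the file headers, so that 96.9% of the values are whole (within 1e-06). The submitters' processing notes name STAR 2.7.11b, cutadapt 5.1 and Subread 2.1.2. The header names 16 libraries, of which 4 were not analysed here.

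Values were rounded to whole counts. Genes were filtered with filterByExpr on the 4 groups, which left 99.9% of the counts. All 12 libraries entered 1 edgeR quasi-likelihood fit (edgeR 4.0.16, R 4.3.3) with TMM scaling. Contrasts were AZA minus vehicle, HDAC3i+AZA minus HDAC3i, and their difference. Benjamini-Hochberg adjustment ran over all tested genes, with calls at adjusted values under 0.05. The biological coefficient of variation was 6.05%. Single values per library were compared by exact two-sided permutation tests.

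The genes named were the 12 largest rises and 12 largest falls of protein-coding genes of at least 5 CPM in the higher group. To these came the 8 largest rises of genes under 0.5 CPM in vehicle and the 4 non-coding genes in each direction. For all of these the rule required AZA and vehicle libraries that do not overlap. Also named were the 6 most abundant called genes in each direction and the 4 called falls of longest span. Then came 10 regulators and members of gene lists, chiefly the 4 of smallest p per list. A few genes that the rule names are not reported here. Other list members were named after their values were seen. The members and lists were chosen with earlier results of these data known. Gene types came from GENCODE 29 and promoter windows from RefSeq (GRCh38.p14). Transcript GC is that of the longest transcript in GENCODE 29. Shares by span, promoter CG, transcript GC and chromosome took protein-coding genes whose AZA and vehicle means average at least 5 CPM. DUSP5, KLF15 and RASL10A, named by their level in the higher group, fall below that. Alternatives were other scaling (DESeq2 size factors, library totals), other filters, DESeq2 1.42.0, limma voom (limma 3.58.1), the 6 libraries compared alone, mitochondrially encoded genes left out, library blocks, leaving out each library, and an offset for transcript GC added after seeing the data.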

Additional observations from a re-analysis of the deposited data

Results flagged for a closer look

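Among the named genes, 20 had an effect of 5-azacitidine that differed by edgeR's interaction test between cells with and cells without the inhibitor. No check for an outlying library was made gene by gene, since each group has 3 libraries. The values are the log2 change of HDAC3i+AZA over HDAC3i minus that of AZA over vehicle. In 15 genes that rose with AZA alone the difference was below 0. It was −0.55 for ATM, −0.51 for BMF, −0.63 for FCER2, −0.56 for FCGR2B, −0.78 for FCGR2C, −1.37 for FGR, −0.56 for IFITM2 and −1.40 for KLHL14. It was −0.77 for MPEG1, −0.73 for MYBPC2, −0.93 for PARP9, −0.70 for SH2D2A, −0.70 for SP140, −0.33 for TMSB4X and −0.34 for XBP1. In 5 genes that fell with AZA alone the difference was above 0, with 0.52 for CAMK1D, 0.34 for FASN, 0.48 for RPTOR, 0.47 for STX8 and 0.65 for TCL6. All 20 lie on the side to which the choice of genes by AZA against vehicle pushes the interaction. KLHL14 had a log2 difference of −0.03 with the inhibitor and 1.37 without it, and ATM of −0.28 with it and 0.27 without it. The call of ATM in AZA against vehicle did not hold without AZA replicate 2 or without vehicle replicate 3.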

How the results depend on the processing

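Of 168 called genes named in the text or led by a list, 50 missed the threshold under at least 1 alternative. Leaving out each library in turn gave 1017 to 1437 called genes for AZA against vehicle (1619 with all), 497 to 684 higher and 508 to 753 lower. Counts moved by over 1.5 times without AZA replicate 2 and vehicle replicate 1 (total), without vehicle replicate 1 (higher), and without AZA replicate 2 and vehicle replicates 1 and 3 (lower). The other settings without a block gave 1464 to 1889. HDAC3i+AZA against HDAC3i gave 690 to 1848 (1312 with all). The interaction count of 128 was the least stable, with 314 without a filter, 204 with a stricter filter, 379 by DESeq2 and 35 to 689 with a library left out. The cause was not tested. Lower genes over 300 kb numbered 75 to 88 and higher CG-poor genes 69 to 86 with a library left out. Among all tested genes over 300 kb, 20.5% were lower. The mitochondrial share differed by 0.099 to 1.99 percentage points and the ribosomal share by 0.22 to 0.27. The signs turned for DNMT3A without AZA replicate 3 (−0.040, up to 0.13 with other libraries left out), DNMT3B without vehicle replicate 1 (−0.0039, up to 0.10) and HDAC3 with the GC offset (0.0063), none of them called.

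Over all pairs of an AZA and a vehicle library, deviations from the group means correlated by −0.039 to 0.024. The pairs of the same title number were at 0.015, −0.001 and 0.024. With 3 libraries a group, whether the numbers pair samples cannot be told from these values. With a block for the number in the titles, 1564 genes were called in AZA against vehicle and 134 in the interaction, and with one for the number in the library names 1457 and 227.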
